A study of Mus musculus with 16 samples.

Results

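Of 61240 regions open to DNase I in mouse liver, 103 lay in a pair of stretches of chromosome 13 taken as the replication-dependent histone gene clusters of the mouse with their flanks. The regions were made by merging the peaks of all 16 deposited peak lists, and a region was a member where it overlapped chr13:21700000-22200000 (window 1, 33 members) or chr13:23450000-23900000 (window 2, 70 members) on the mm9 build. The windows themselves were selected on these livers' own values, with the TCPOBOP and vehicle pileups already known, so every difference between TCPOBOP and vehicle given here is a description of these pools, the counts of calls included, and supports nothing beyond them. Members are numbered along the chromosome within each window.

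All livers came from CD1 (ICR) mice of 7 weeks from Charles River, with no genetic change named in the labels. Male and female mice received one intraperitoneal injection of TCPOBOP at 3 mg/kg or of its vehicle, 1% DMSO in corn oil, and livers were taken 3 h or 27 h later. TCPOBOP is a potent agonist of the mouse constitutive androstane receptor, a nuclear receptor of hepatocytes, and is known to induce drug-metabolising enzymes and hepatocyte division. Nuclei were digested lightly with DNase I and the released fragments of 125 to 400 bp were sequenced, so that a peak marks chromatin open to the enzyme. Each of the 8 groups (2 sexes, 2 times, TCPOBOP or vehicle) had 2 replicate pools, each mixing material from 3 to 5 livers, and each sex and time was an experiment of its own with its own vehicle pools. Sex and time can therefore not be told apart from the experiment. In whole liver, a change in the share of cells with an open site and a change in its openness per cell cannot be told apart either, and the cell types could not be checked from markers because no mm9 gene annotation was used here.

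The value given for a region is its scaled pileup, the number of extended DNase fragments stacked at the summit of the highest peak in the region, per 1000000 tags of that library. Libraries held 15679689 to 43618254 tags, and 65 to 91 members had a peak in each list. Differences are log2 values, centred in each library on the median of the 18443 regions with a peak in all 16 lists, with the SE of a limma fit over all regions and pools. A member was tested where all pools of a comparison had a peak, and called where the Benjamini-Hochberg adjusted p over all regions tested was under 0.05. Centring mattered most in males: without it the median of all regions was 0.15 at 3 h and 0.11 at 27 h, against -0.03 and -0.01 with it. The log2 differences below are relative to the centred median unless stated otherwise. Scaled pileups are not centred, so statements on whether groups overlapped or lay above one another are on the uncentred scale. The log2 ratios of local background and of fold enrichment are not centred either.

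Replication-dependent histone genes encode the core histones H2A, H2B, H3 and H4 and the linker histone H1, are short and without introns, and are transcribed mainly in S phase, when new DNA has to be packed into nucleosomes. Their mRNAs end in a stem-loop in place of a poly(A) tail, and in mammals most of the genes sit in clusters, the largest shared in the mouse with many tRNA genes, which RNA polymerase III transcribes. In RefSeq's gene order (GRCm38, used here for order only), the first cluster holds 23 intact histone genes and 34 tRNA genes. It runs from 18 histone genes (H2bc13 to H4bc24) through a stretch of 31 tRNA genes with the protein-coding genes Zfp184, Pom121l2 and Prss16 to a last group of 5 histone genes (H2ac12 to H2bc11). The second cluster holds 29 intact histone genes, and 45 tRNA genes all precede the first of them, H4c8. The 87 annotated entries between the clusters include 75 vomeronasal receptor genes and pseudogenes of the Vmn1r family. Which member lies at a histone gene, a tRNA gene or elsewhere was not resolved, since the regions are on mm9 and the annotation used here is on GRCm38, so members are named by position and not by gene.

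To show what the promoters of such genes look like, the first gene of each histone class in the second cluster is printed below from RefSeq (GRCm38.p6), 5′ to 3′, from 150 bp before to 10 bp after the annotated start. Capitals mark matches on either strand to 4 motifs. The TATA box, bound by the general transcription machinery, was searched as the letters TATAAA. The box bound by the factor NF-Y was searched as the letters CCAAT. The octamer element, known from H2B promoters, was searched as the letters ATTTGCAT. The element that nuclear receptors recognise was searched as the letters AGGTCA. None of the 4 contains another. H4c8 encodes histone H4, H2ac10 an H2A, H3c8 an H3, H2bc9 an H2B and H1f3 a linker histone. Their GRCm38 positions cannot be set against the mm9 positions of the members.
H4c8, chr13:23530894-23531053, plus strand: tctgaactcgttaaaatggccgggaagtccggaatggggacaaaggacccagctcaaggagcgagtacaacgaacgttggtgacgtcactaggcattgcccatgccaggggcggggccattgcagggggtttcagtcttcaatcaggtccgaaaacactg
H2ac10, chr13:23533725-23533884, plus strand: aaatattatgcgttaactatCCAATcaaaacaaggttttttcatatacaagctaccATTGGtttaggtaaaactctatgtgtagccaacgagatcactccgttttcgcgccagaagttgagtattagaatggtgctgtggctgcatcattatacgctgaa
H3c8, chr13:23535268-23535427, plus strand: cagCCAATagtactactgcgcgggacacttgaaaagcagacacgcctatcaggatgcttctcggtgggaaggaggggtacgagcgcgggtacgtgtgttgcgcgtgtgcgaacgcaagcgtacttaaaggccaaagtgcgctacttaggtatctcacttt
H2bc9, chr13:23543435-23543594, minus strand: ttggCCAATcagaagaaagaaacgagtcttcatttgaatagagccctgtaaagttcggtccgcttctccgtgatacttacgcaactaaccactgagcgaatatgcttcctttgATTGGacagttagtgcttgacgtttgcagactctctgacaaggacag
H1f3, chr13:23554882-23555041, plus strand: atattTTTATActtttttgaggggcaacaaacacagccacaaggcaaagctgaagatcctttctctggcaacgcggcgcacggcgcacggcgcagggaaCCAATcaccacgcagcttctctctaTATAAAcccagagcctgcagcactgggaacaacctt
H4c8 had none of the 4 motifs in the printed stretch, 4 of the 5 had a CCAAT box and only H1f3 had a TATA box. Of the 52 intact histone genes of both clusters, 49 had a promoter in the table, with 50 entries of 300 bp. A CCAAT box was in 84% of these entries against 37.4% of all 32851 mouse promoters, a TATA box in 58% against 13.6%, the octamer in 18% against 1.74%, and AGGTCA in 4% against 16.3%. These shares describe the letters of the promoters and were not set against the DNase values.

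The members were found in more lists than regions elsewhere. All 16 lists held a peak in 44 of the 103 members (42.7%), against 30.1% of all regions and 30.4% of the 2736 other regions of chromosome 13. A single list held 7 members (6.80%), against 17.99% of all regions. The 7 regions between the windows were sparse, with none in all 16 lists and 3 in 1 list. Members had a median width of 644 bp, from 200 to 2157 bp, against 593 bp for all regions. At the edges, the first and last members of both windows had a peak in all 16 lists, as had the regions just before window 1 and just after window 2. The region just after window 1, chr13:22281150-22281544, was in 9 lists with a mean scaled pileup of 0.784, and the one just before window 2, chr13:23409445-23409644, was in 1 list at 0.470.

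The most open members, named by their mean over the 16 lists, lay mainly in the later part of window 2. Member 32 of window 2, chr13:23673095-23673630, held a scaled pileup of 10.2 and 8.89 in the male and 10.6 and 10.4 in the female vehicle pools at 3 h. It held 14.7 and 11.0 in the male and 8.79 and 9.78 in the female TCPOBOP pools at 3 h. At 27 h its vehicle pools held 12.004 and 10.8 in males and 7.16 and 7.26 in females. Its TCPOBOP pools at 27 h held 8.66 and 13.5 in males and 8.42 and 8.37 in females. The male groups overlapped at 27 h, and no comparison called this member. Members 29, 43, 56 and 61 of window 2 and members 1, 11 and 32 of window 1 were also among the 5 most open of their window, and none of these was called in any of the 4 comparisons; the other 2 of window 1, members 19 and 33, were called at 27 h and are described below. The uncalled ones had centred differences in the mean of both sexes at 27 h that ran from -0.05 ± 0.12 (SE), for member 61 of window 2, to 0.17 ± 0.12, for member 1 of window 1.

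At 3 h a single member was called. In males, 61 members were tested and none was called by limma, against 0.642% of all tested regions called higher and 0.113% called lower, and 3 members (4.92%) had an unadjusted p under 0.05, all of them lower, against 13.3% of all regions. The median member difference was 0.03, against -0.03 for all regions. In females, 1 of 56 members was called higher and none lower, against 1.04% and 0.0789% of all regions, and the median was -0.06 against -0.03. The called member was member 29 of window 1, chr13:22126116-22127101, with a scaled pileup of 1.65 and 1.67 in the vehicle and 2.56 and 2.96 in the TCPOBOP pools, a centred difference of 0.72 ± 0.18 (SE, n = 2 pools per group). Its 2 groups did not overlap, while in males the difference was 0.14 ± 0.18. It was no longer called when any of the 4 pools was left out. In the mean of both sexes none of 53 members was called by limma in either direction, against 2.04% of all regions. At an unadjusted p under 0.05 were 9 of the 53 (17.0%), 2 of them higher, against 13.3% of all regions.

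At 27 h many members were higher after TCPOBOP. In females, 17 of 63 members tested were called higher and 1 lower, against 3.71% and 2.95% of all 25502 regions tested. In males, 7 of 65 were called higher and none lower, against 1.75% and 0.439% of 31915 regions. Leaving out any single male pool at 27 h lowered both the number of members called and the number of all regions called. In the mean of both sexes, 14 of 57 were called higher and 1 lower, against 5.30% and 4.34%. The median member difference was 0.14 in females and 0.16 in males, against -0.05 and -0.01 over all regions and -0.07 and -0.01 over the rest of chromosome 13. By window, the medians in females were 0.55 for 22 members of window 1 and 0.05 for 41 of window 2. The male medians were 0.31 for 22 and 0.10 for 43. Without centring, the calls over all regions leaned further to higher values (705 higher and 51 lower in males against 557 and 140, and 942 and 362 in females against 946 and 752), with 7 members called in males and 17 in females in place of 7 and 18.

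**Figure D1:**
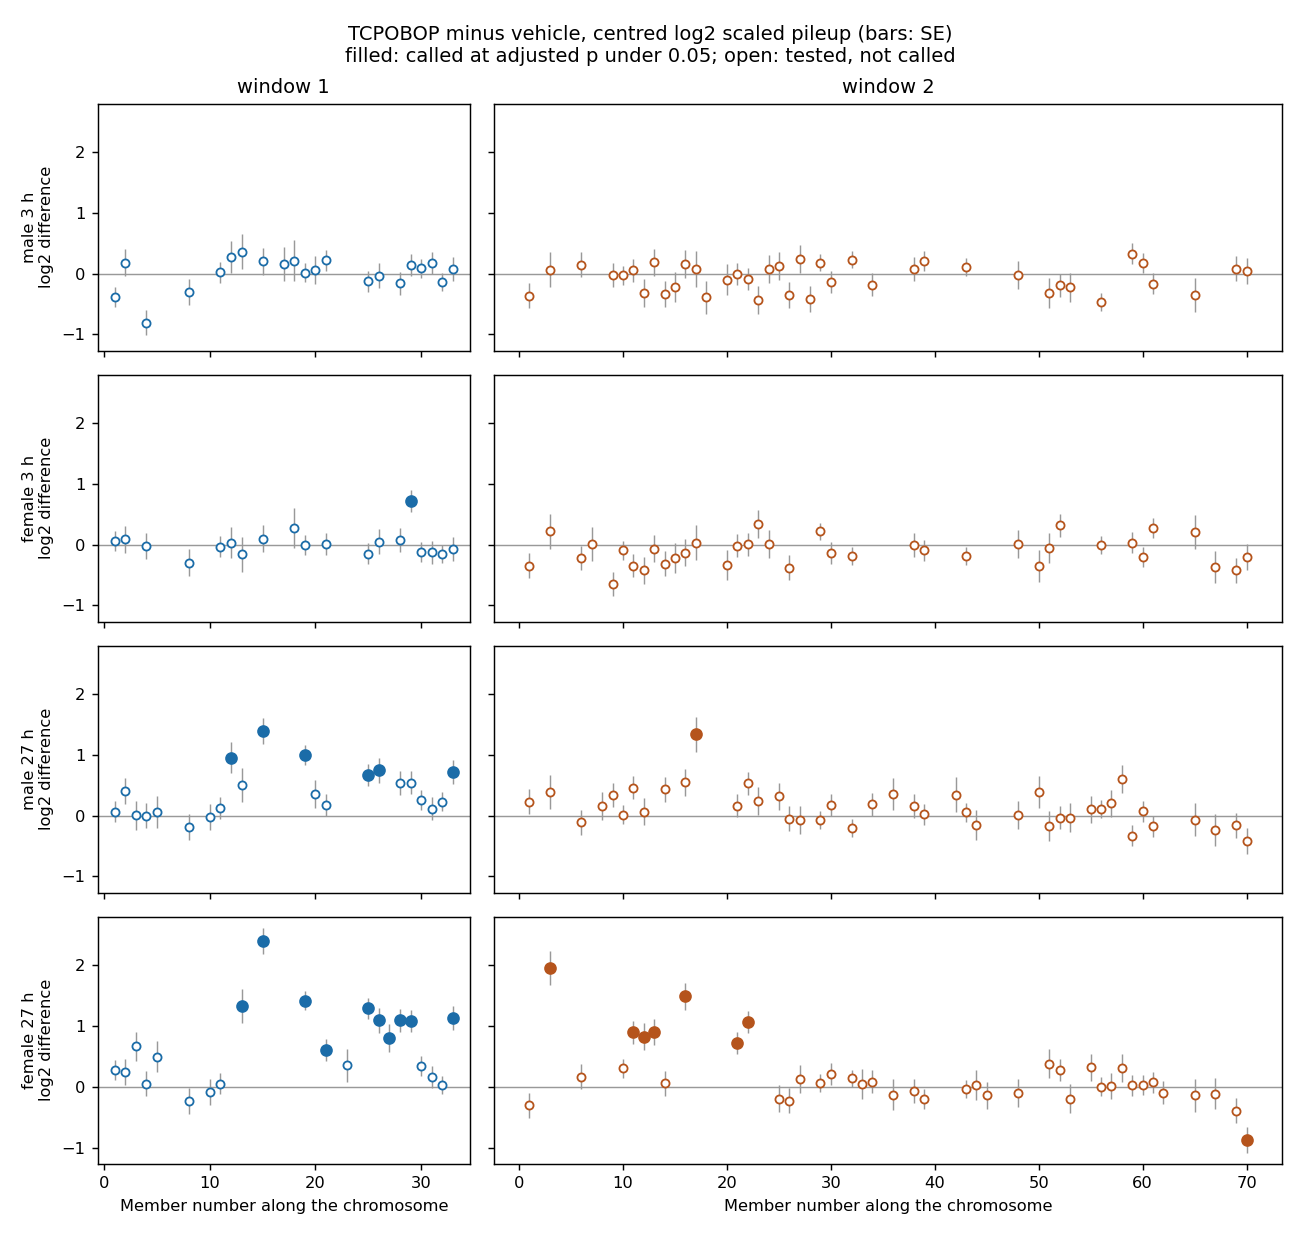
Centred log2 difference in scaled pileup, TCPOBOP minus vehicle, for every tested member in chromosomal order (x, member number; columns, windows; rows, the 4 comparisons; bars, SE; filled points, called members). At 3 h 1 point is filled in females and none in males, and at 27 h the filled points above 0 run from member 12 to member 33 in window 1 and from member 3 to member 22 in window 2.

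The members called higher at 27 h sat together. All 19 that were called in either sex or in the mean of both lay from chr13:21946817 to chr13:22143338 (11 members) or from chr13:23492618 to chr13:23611611 (8 members). These stretches were drawn after the values were seen. Of their 42 members, 21 were tested in both sexes at 27 h, and 20 of the 21 had a difference above 0 in both. Over all 57 members tested in both sexes, 32 were above 0 in both. The median of the 21 in the mean of both sexes was 0.80, from 0.03 to 1.90. The 21 include the 14 members called higher in that mean, so their signs and median were largely set by the choice of the stretches. The 11 members of window 1 before the first stretch had a median of 0.13 over 8 tested, from -0.21 to 0.33. The 48 members of window 2 after the second stretch had a median of 0.01 over 27 tested, from -0.64 to 0.46, and the most open members of window 2 were among these. The calls thus lay in the later part of window 1 and the earlier part of window 2. In RefSeq's order, 31 tRNA genes of the first cluster follow its first 18 histone genes. All 45 tRNA genes of the second cluster precede its first histone gene. Whether the called members lie at histone genes, tRNA genes or elsewhere was not tested.

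Member 15 of window 1, chr13:22010619-22011563, differed most. At 27 h it held a scaled pileup of 1.42 and 1.26 in the male vehicle pools and 3.14 and 4.73 in the male TCPOBOP pools. The female vehicle pools held 0.489 and 0.610 and the female TCPOBOP pools 2.99 and 3.10. All 4 TCPOBOP pools were above all 4 vehicle pools. The centred differences were 1.40 ± 0.22 (SE, 2.63-fold) in males and 2.40 ± 0.22 (5.27-fold) in females. At 3 h its vehicle pools held 3.06 and 3.78 in males and 3.01 and 2.65 in females, and its TCPOBOP pools 4.69, 4.26, 2.46 and 3.76 in the same order. Here the female groups overlapped, while both male TCPOBOP pools were above both male vehicle pools without a call. The 8 pools at 3 h, at 2.46 to 4.69, were all above the 4 vehicle pools at 27 h.

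Another 4 members, all in window 1, were called higher at 27 h in both sexes. Member 19, chr13:22031982-22033209, held 3.38 and 3.28 in male vehicle, 6.18 and 8.54 in male TCPOBOP, 2.66 and 2.77 in female vehicle and 8.22 and 7.15 in female TCPOBOP pools at 27 h. Its centred differences were 1.00 ± 0.16 in males and 1.42 ± 0.16 in females. Before centring, its 8 pools at 3 h ran from 4.01 to 6.09. They were above all 4 vehicle pools and below all 4 TCPOBOP pools at 27 h. Member 25, chr13:22107073-22107907, held 2.65 and 2.29 in male vehicle, 3.70 and 4.95 in male TCPOBOP, 1.40 and 1.496 in female vehicle and 3.75 and 3.76 in female TCPOBOP pools. Its differences were 0.67 ± 0.18 in males and 1.29 ± 0.17 in females, and its 3 h pools, at 3.86 to 5.74, were all above the 27 h vehicle pools. Member 26, chr13:22112422-22114578, the widest member, held 1.51 and 1.49 in male vehicle, 2.44 and 3.09 in male TCPOBOP, 1.43 and 1.77 in female vehicle and 3.55 and 3.66 in female TCPOBOP pools. Its differences of 0.75 ± 0.21 and 1.09 ± 0.20 turned to -0.10 and -0.05 when the pileups of all its peaks were summed in place of the highest. Member 33, chr13:22142157-22143338, held 2.71 and 3.14 in male vehicle, 4.99 and 5.499 in male TCPOBOP, 1.82 and 2.66 in female vehicle and 5.71 and 4.58 in female TCPOBOP pools, with differences of 0.72 ± 0.20 and 1.13 ± 0.20. The male calls of members 25, 26 and 33 held in only 4, 3 and 3 of the 13 other settings tried, while those of members 15 and 19 each held in 12 of 13. In all 4 members every TCPOBOP pool at 27 h was above every vehicle pool at 27 h. Over all members with peaks in all 8 pools at 27 h, 16 of 57 showed this separation, against 6.35% of all regions, and at 3 h 1 of 53, against 3.98%. These counts are from pileups that were not centred.

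**Figure D2:**
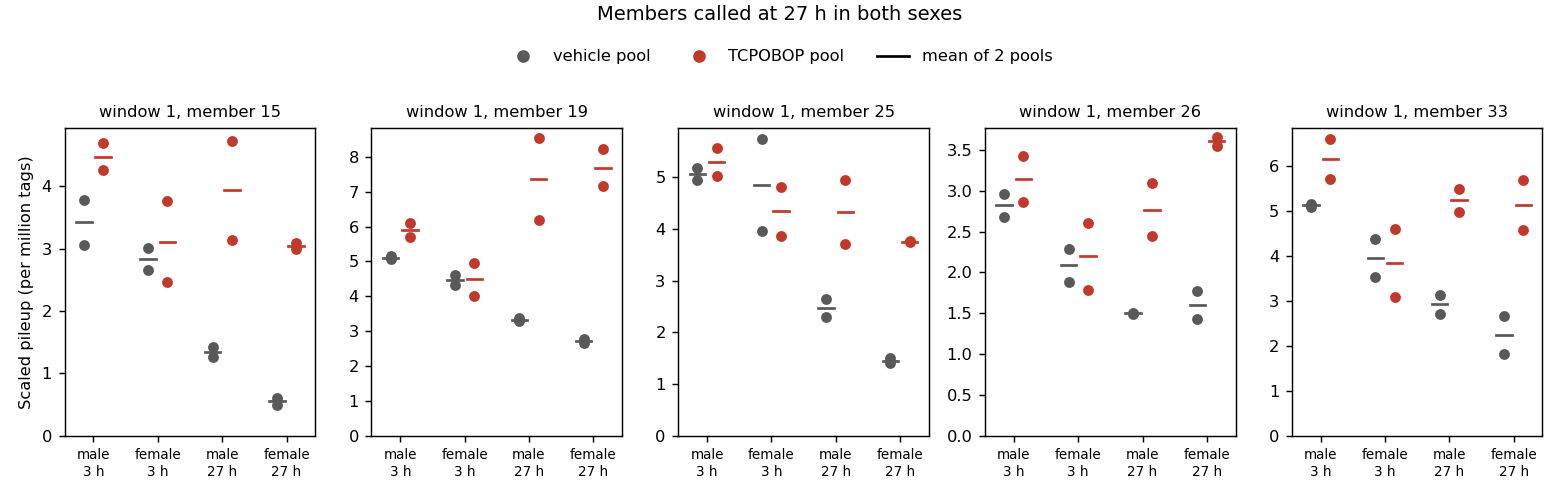
Scaled pileup in each pool (points) and the mean of 2 pools (lines) for the 5 members called higher at 27 h in both sexes (panels, each with its own axis from 0; x, sex and time; grey, vehicle; red, TCPOBOP). At 27 h the red points lie above the grey ones in each panel, while at 3 h the grey points are at or near the level of the red ones.

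The remaining male calls were members that could not be tested in females because a vehicle pool had no peak. Member 12 of window 1, chr13:21946817-21948087, held 1.09 and 0.734 in male vehicle and 1.47 and 2.43 in male TCPOBOP pools at 27 h, a difference of 0.95 ± 0.26; 1 female vehicle pool held 0.454 and the other had no peak, against 2.35 and 1.85 in the TCPOBOP pools. Member 17 of window 2, chr13:23589744-23590396, held 0.614 and 0.504 in male vehicle and 1.64 and 1.44 in male TCPOBOP pools, a difference of 1.34 ± 0.29. In females it had no peak in either vehicle pool and 0.957 and 0.923 in the TCPOBOP pools. In both members the direction was the same in both sexes. Their male calls held in 4 and 8 of 12 other settings.

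In females 12 more members were called higher at 27 h, of which 10 were tested in males, and the male difference was above 0 in all 10 without being called. The largest was member 3 of window 2, chr13:23492618-23494152, at 1.43 and 0.610 in female vehicle and 3.51 and 4.15 in female TCPOBOP pools, a difference of 1.95 ± 0.28 against 0.39 ± 0.28 in males, whose vehicle pools held 1.79 and 1.40 and TCPOBOP pools 2.37 and 2.16. Member 16 of window 2, chr13:23558740-23559254, held 0.908 and 0.720 in vehicle and 2.87 and 2.01 in TCPOBOP pools, a difference of 1.49 ± 0.22. Member 13 of window 1, chr13:21973580-21975244, held 0.594 and 1.16 in vehicle and 2.07 and 2.37 in TCPOBOP pools, a difference of 1.33 ± 0.28. The female groups of these 3 members did not overlap. Members 21, 27, 28 and 29 of window 1, starting at 22066027, 22118099, 22120551 and 22126116, differed by 0.60, 0.80, 1.09 and 1.08. Members 11, 12, 13, 21 and 22 of window 2, starting at 23528768, 23537427, 23542153, 23608766 and 23610560, differed by 0.89, 0.83, 0.91, 0.72 and 1.06. The female calls of members 21 and 27 of window 1 held in only 4 of 13 and 6 of 12 other settings. Those of members 12 and 21 of window 2 held in 6 of 13 each, of member 13 in 8 of 12 and of member 11 in 11 of 13. Members 28 and 29 of window 1 and member 22 of window 2 kept theirs in 12 of 13 each. The female differences were not shown to be larger than the male ones: no member was called by limma for a difference between sexes at 27 h or at 3 h, against 0.00826% and 0.005% of all regions. At an unadjusted p under 0.05 were 9 of 57 members at 27 h (15.8%), against 5.17% of all regions. At 3 h they were 6 of 53 (11.3%), against 10.3%. The TCPOBOP difference was higher in females in all 9 at 27 h and in 4 of the 6 at 3 h.

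The only member called lower was the last of window 2, member 70 at chr13:23898242-23899508. Its female vehicle pools at 27 h held a scaled pileup of 7.13 and 4.49 and its TCPOBOP pools 2.71 and 3.96. The groups did not overlap, and the difference was -0.87 ± 0.21. In males the vehicle pools held 3.68 and 5.04 and the TCPOBOP pools 3.18 and 3.95, which overlapped, with a difference of -0.41 ± 0.21.

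The vehicle pools themselves differed between the times at many of these members. Of 44 members tested in all 16 pools, 9 were called for a larger TCPOBOP difference at 27 h than at 3 h and none for a smaller one, against 0.228% and 0.222% of all regions. This count fell to 4 without centring and to 0 with fold enrichment in place of pileup. Over all 18443 regions tested, the same settings called 58 and 0 in place of 83. Leaving out any of 10 single pools lowered both the member count and that over all regions. The values of the 9 members were 1.74 ± 0.22 for member 15 of window 1 and 0.82 to 1.20 for the other 8. In a contrast added after the data were seen, the vehicle pools at 27 h were set against those at 3 h in the mean of both sexes, and 17 of 44 members were called lower at 27 h and 8 higher, against 19.3% and 17.7% of all regions. Of the 14 members called higher after TCPOBOP at 27 h in the mean of both sexes, 9 were called lower in the 27 h vehicle pools than in the 3 h vehicle pools and 1 was called higher. Their median was -0.77, from -2.02 to 0.35. The 14 were picked on the same 27 h vehicle pools, which favours low values there, so these counts are a description with no weight as a test. In the TCPOBOP pools, whose 27 h values also entered that choice, the same 14 had a median of 0.17 between the times, from -0.70 to 0.73, with 5 called higher at 27 h and 2 lower. Over all members the TCPOBOP pools had 18 of 58 called higher at 27 h and 10 lower, against 18.5% and 20.3% of all regions (22 and 5 without centring). Both contrasts call a large share of all regions, and time cannot be told apart from the experiment in them.

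**Figure D3:**
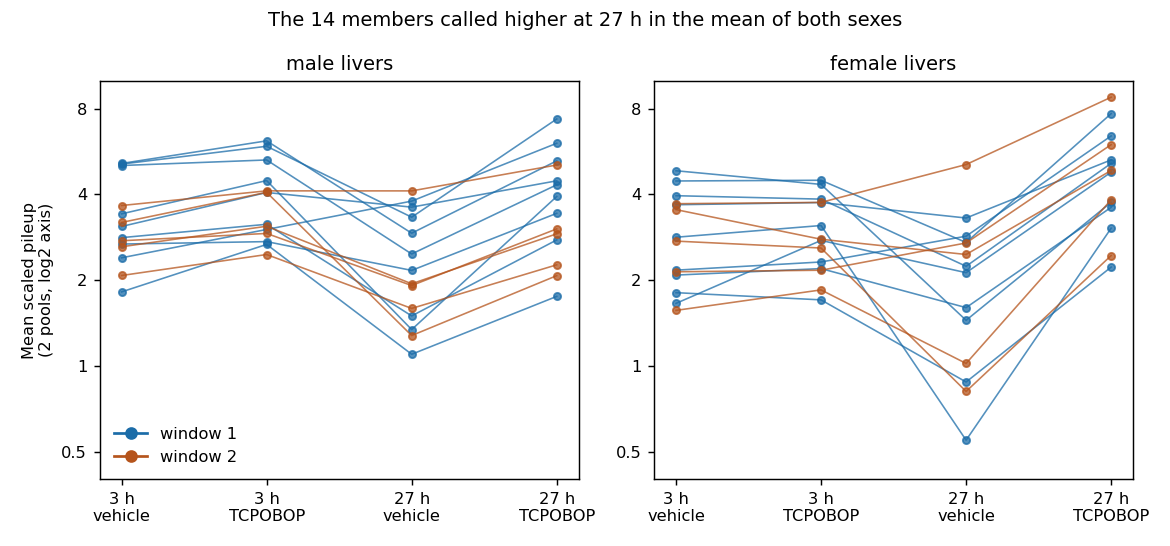
Mean scaled pileup (log2 axis, mean of 2 pools) in the 4 groups of each sex for the 14 members called higher at 27 h in the mean of both sexes. Lines only join the values of a member, since 3 h and 27 h pools are from different experiments; most members are lowest in the 27 h vehicle group, down to 0.549 for member 15 of window 1 in females.

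Presence in the peak lists was compared as well. A member was counted as gained where both TCPOBOP pools and neither vehicle pool had a peak, and as lost in the reverse case. At 27 h, 5 of 96 members with a peak were gained in males and 8 of 95 in females, against 2.22% and 6.04% of all regions with a peak, so the female share was near that of all regions. At 3 h, 3 of 83 were gained in males and 1 of 78 in females, against 4.93% and 4.05%. No member was lost in any comparison, against 0.474%, 1.01%, 2.31% and 1.26% of all regions in males and females at 3 h and males and females at 27 h. With all lists shortened to the same length, 1, 1, 7 and 5 members were gained and 1, 2, 1 and 0 lost, in the same order, so at 3 h no more members were gained than lost. In all, 13 members were gained at least once, 10 of them at 27 h. Of the 13, 9 lay in the 2 stretches that held the called members, and these stretches hold 42 of the 103 members. The stretches were drawn on the values of the 27 h pools, so this count is a description only.

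Members 18 and 22 of window 1 and member 18 of window 2 were gained at 27 h in both sexes. Member 18 of window 1, chr13:22027020-22027531, had no peak in any vehicle pool at 27 h and held 0.803 and 0.995 in the male and 0.957 and 1.12 in the female TCPOBOP pools. All 8 pools at 3 h had a peak there, with a scaled pileup from 0.869 to 2.61. Member 18 of window 2, chr13:23592136-23593130, held 0.908, 1.02, 1.60 and 1.35 in the TCPOBOP pools at 27 h and had a peak in 7 of the 8 pools at 3 h. Member 22 of window 1, chr13:22085793-22086325, held 0.768, 1.52, 0.878 and 0.857 in the TCPOBOP pools at 27 h. The lowest pileup of each list was 0.298 to 0.510 when scaled, below which no peak is recorded, so a missing peak is not a value of 0. Members 16 and 17 of window 1, starting at 22011860 and 22016511, were gained in males at 27 h, and the first of these also in males at 3 h. Members 7, 17, 19, 41 and 50 of window 2, starting at 23517093, 23589744, 23595687, 23742720 and 23817035, were gained in females at 27 h. Members 5 and 57 of window 2, starting at 23504231 and 23842575, were gained in males at 3 h, and member 44, starting at 23776397, in females at 3 h.

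**Figure D4:**
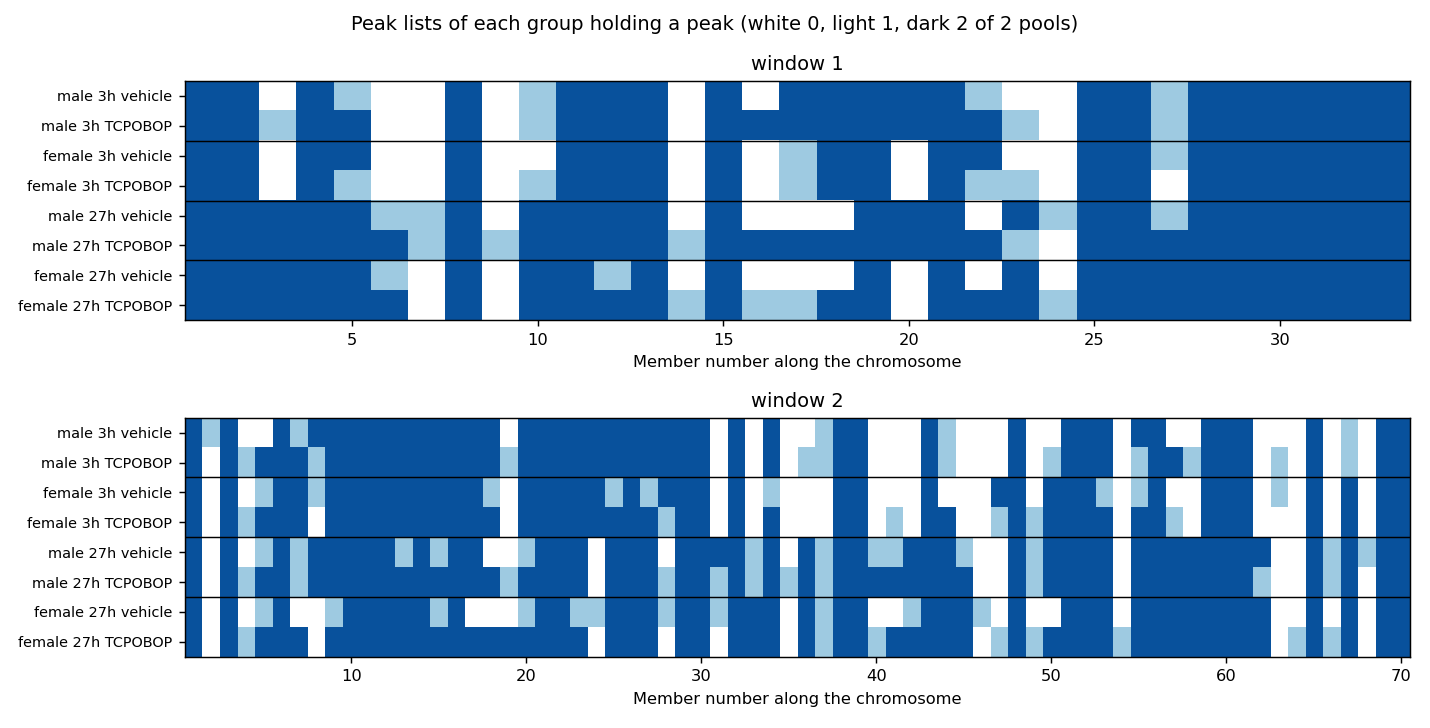
Number of peak lists with a peak (white 0, light blue 1, dark blue 2 of 2 pools) for each group (rows) and each member in chromosomal order (x, member number) of window 1 (top) and window 2 (bottom). Gained members appear as white above dark blue within a pair of rows, as at members 18 and 22 of window 1 at 27 h in both sexes.

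The local background around the called members was also higher. Each peak's deposited fold enrichment gives back the local background that the peak caller used, read from a range of about 10000 bp around the peak and never below the genome mean. In the 17 members called higher in females at 27 h, this background differed by a median log2 ratio of 0.91 between TCPOBOP and vehicle, from 0.62 to 1.71, beside a median of 1.09 for the scaled pileup itself. In the 46 other members tested the medians were 0.10 and 0.04. In males the medians were 0.83 and 0.95 for the 7 called members and 0.14 and 0.12 for the 58 others. The 2 measures are not on the same scale, since the pileup differences are centred and the background ratios are not. For pileup at 27 h, the median of all regions without centring was 0.03 in females and 0.11 in males. With centring it was -0.05 and -0.01. At member 15 of window 1 the female vehicle pools had a local background of 1.02 times the genome mean and the TCPOBOP pools of 3.34 times. With fold enrichment in place of pileup, an alternative added after the data were seen, 3 members were called at 27 h in females in place of 18. None was called by limma in males in place of 7. Calls over all regions fell as well, from 1698 to 66 of 25502 in females and from 697 to 67 of 31915 in males. The median log2 ratio of fold enrichment over the 17 members was 0.31, with 14 of them above 0. The range holds the peak itself and any neighbours, so the part of the background in the result was not tested.

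**Figure D5:**
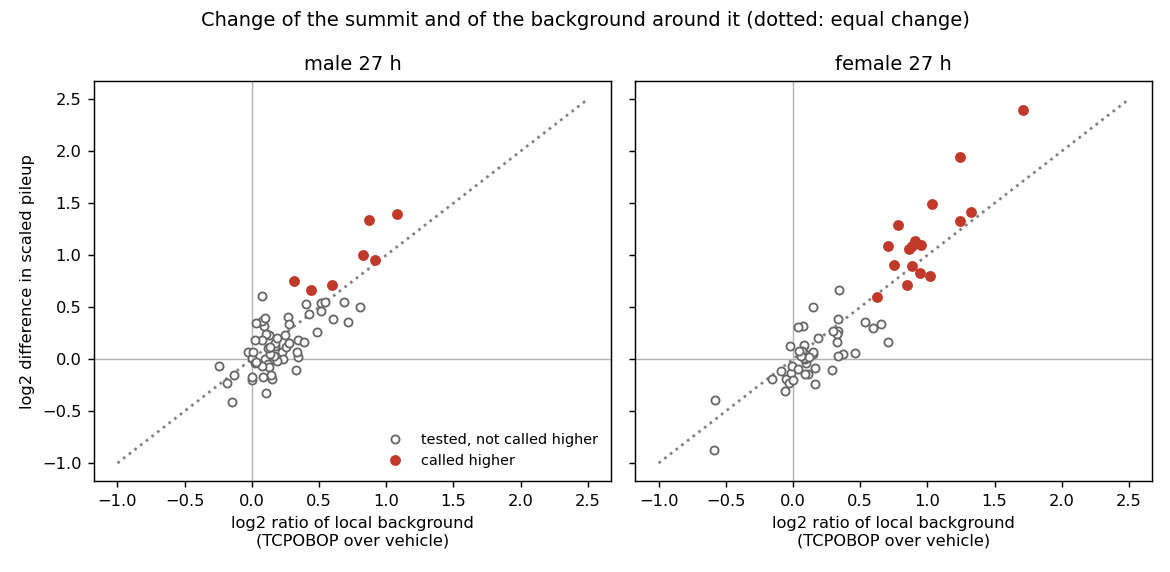
Log2 difference in scaled pileup (y, centred) against the log2 ratio of the local background (x, not centred), TCPOBOP over vehicle at 27 h, for each tested member in males (left) and females (right); red, called higher; open, other tested members; dotted, equal change. The called members lie to the right of 0 on the background axis, from 0.31 to 1.08 in males and from 0.62 to 1.71 in females.

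The called members were also broader. The 14 called higher in the mean of both sexes at 27 h had a median width of 1205 bp, from 515 to 2157 bp, against 624 bp, from 361 to 1656 bp, for the 42 members tested and not called. Their median pileup was lower in the 27 h vehicle pools, at 2.05 in males and 2.18 in females against 2.83 and 2.81 for the members not called, and higher in the TCPOBOP pools, at 3.68 and 4.82 against 3.20 and 3.21. The 14 were picked on these same 27 h pools, which favours low vehicle and high TCPOBOP values, so these pileup medians are a description only. Width is that of the region merged over all 16 lists, TCPOBOP pools included, and its part in the result was not tested.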

How the data were processed

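DNase-seq fragments of 16 liver pools were sequenced as 50 bp reads, paired-end runs being used by read 1 alone per the labels, and, per the submitters' processing notes, Bowtie was the aligner and mm9 the build. Per the file headers, the authors called peaks in each pool separately with MACS 2.1.0.20150731 at q 0.05, without a control, keeping duplicates, with reads shifted by 100 bp and extended to 200 bp. Each deposited list gives, per peak, the pileup at the summit as an unscaled signal, a fold enrichment over local background (a ratio), −log10 p and −log10 q. One deposited list carries the heading of another pool, but its command line and peak names match its own labels and it was used as such. Other versions are not given in the sources used here.

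Peaks of the 16 lists were merged into regions where they overlapped (Python 3.11.15, pandas 2.3.3), and the highest pileup per region and pool was divided by the tags of the library. Log2 values were centred on the median of regions with a peak in all lists and fitted with limma 3.58.1 (R 4.3.3), with 8 group means, a trended prior and Benjamini-Hochberg adjustment over all tested regions. The steps were tested on simulated data. The members, gene lists and tests were chosen with earlier results of these data known. Named are members called in any comparison or mean of both sexes, the 5 most open of each window, members gained or lost, and the largest rise and fall at 27 h. Counts were recomputed under other centring, filters, spread estimates and scores, and without each pool. P-values measure the spread between pools of 3 to 5 livers. No intervals for counting error are given, since pileup keeps duplicates and is not a count of molecules.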

Additional observations from a re-analysis of the deposited data

Results flagged for a closer look

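In 9 members the TCPOBOP difference at 27 h passed the limma test against the difference at 3 h (mean of both sexes, all 16 pools), and this difference between times is what singled them out. The log2 values, 27 h minus 3 h, were 1.74 at chr13:22010619, 1.20 at chr13:22031982, 1.12 at chr13:22107073, 0.91 at chr13:22112422, 0.86 at chr13:22120551 and 0.92 at chr13:22142157 in window 1. In window 2 they were 0.82 at chr13:23528768, 1.00 at chr13:23558740 and 0.84 at chr13:23610560. The count of 9 fell to 4 without centring and to 0 with fold enrichment in place of pileup. Calls over all 18443 regions went from 83 to 58 and 0 in these settings. Leaving out any of 10 single pools lowered both counts. The TCPOBOP differences enter the choice of the windows, so these values are a description, and time and experiment cannot be told apart. Groups of 2 pools are too small for a check of single outlying pools.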

How the results depend on the processing

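Counts of called members at 27 h in females and in the mean of both sexes stayed within 1.5 times of 18 and 15 under every setting tried except fold enrichment in place of pileup, which left 3 and 2. Over all regions, fold enrichment left 66 and 178 calls in place of 1698 and 2336. In males, 7 became 3 with centring on the 5000 highest regions, without the mean trend, with regions in all 16 lists alone or with summed pileups, 4 with missing peaks set to the lowest pileup, and 0 with fold enrichment. Over all regions, 697 male calls became 627, 520, 282 (of 18443 tested), 339, 967 (of 61240 tested) and 67 in the same order. The 1 member at 3 h in females became 0 without centring, without the trend, with summed pileups, with fold enrichment, with missing peaks filled, with the spread of the pools compared alone and with the replicate block. The mean of both sexes at 3 h became 1 with missing peaks filled. The 9 members differing between times became 4 without centring, 3 without the trend or with summed pileups, and 0 with fold enrichment. Over all regions, 83 calls became 58, 20, 18 and 0 in the same order. The time contrasts became 13 (vehicle) and 16 (TCPOBOP) with fold enrichment, and 55 in vehicle with missing peaks filled.

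Leaving out 1 pool, the other then being assumed to vary like other groups, gave 0 calls in males, in females and in their mean at 3 h and 0 between sexes at 3 h. At 27 h it gave 2 to 5 in males, 12 to 18 in females, 12 to 16 in the mean and 0 to 1 between sexes. The count between times was 3 to 10, and was 3 without any of the 4 male pools at 27 h, either female TCPOBOP pool at 27 h, the first TCPOBOP pool of either sex at 3 h or either female vehicle pool at 3 h. The vehicle and TCPOBOP time contrasts gave 22 to 26 and 21 to 27. Gained or lost members were 5 to 8 in males and 6 in females at 3 h and 7 to 12 and 9 to 19 at 27 h, over 1.5 times the main count without any pool but the second male TCPOBOP (7) and second female vehicle (9) pools at 27 h. With lists of equal length they were 2, 3, 8 and 5, and with peaks covering 0.5 of a region 5, 3, 8 and 16, in males and females at 3 h and males and females at 27 h.

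Summed pileups turned chr13:22112422 to -0.10 (male), -0.052 (female), -0.078 (mean of both sexes) and -0.13 (between times) and chr13:22118099 to -0.12 (female). Fold enrichment turned chr13:22118099 to -0.14, chr13:23537427 to -0.022 and chr13:23608766 to -0.070 in females, and the last to -0.10 in the mean. The causes were not tested.

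Pools of the same number correlated by -0.03 to 0.06 in their deviations, so they share only a number; with the replicate block, 0, 0, 7 and 17 members were called in males and females at 3 h and males and females at 27 h. At a median residual SD of 0.20, 2 pools per group show only large changes.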
